A study of Homo sapiens with 9 samples.

Results

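Glycolysis splits glucose and passes the pieces through a common chain of reactions to pyruvate, and this report follows the stretch from aldolase to enolase in Hep3B cells, a human hepatocellular carcinoma line. The genes were taken by symbol from the deposited count table: the aldolases ALDOA and ALDOC, triosephosphate isomerase TPI1, glyceraldehyde-3-phosphate dehydrogenase GAPDH, phosphoglycerate kinase PGK1, phosphoglycerate mutase PGAM1 and the enolases ENO1, ENO2 and ENO3. They are 9 of the 60683 genes listed, and all 9 passed the filter on low counts. Transcripts were counted in 9 cultures grown in 6-well plates, which the labels place in 3 groups of 3 replicates. A normoxic control group received vehicle (DMSO) at 20% O2, a hypoxic control group received vehicle at 1% O2, and the treated group received 32-134D at 1% O2; RNA was taken after 24 hours. 32-134D was made to inhibit hypoxia-inducible factors (HIFs). The libraries do not include 32-134D at 20% O2. The labels name a DMEM/F12 medium and the study's methods a high-glucose DMEM, so the glucose supply of these cultures is uncertain.

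When oxygen is scarce, cells make less ATP by respiration and more by glycolysis. HIF-1 and HIF-2 are transcription factors, each an oxygen-regulated alpha subunit joined to HIF-1beta, which bind hypoxia response elements with the core ACGTG or GCGTG and raise transcription of many glycolytic genes. Aldolase cuts fructose 1,6-bisphosphate into a pair of triose phosphates, TPI1 converts each into the other, GAPDH oxidizes glyceraldehyde 3-phosphate and makes NADH, PGK1 makes the first ATP of the chain, PGAM1 moves the phosphate group, and enolase removes water to give phosphoenolpyruvate. ALDOA and ENO1 are the widely used isozymes, ALDOC and ENO2 are best known from brain, and ENO3 is best known from muscle.

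The libraries held 6013980 to 40549699 counts, with vehicle at 20% O2 replicate 2 the shallowest. The third 32-134D library stood apart: its chi-square per degree of freedom was 40.5 and 36.2 against the other two 32-134D libraries, which differed from each other by 2.08, and its albumin (ALB) level was 5948 CPM against 9338 and 9061. Levels below are CPM, counts per 1000000 of a library total adjusted by the trimmed mean of M values (TMM). The summed level of 9 hepatocyte-lineage markers, all detected, was 19648 to 20384 CPM in vehicle at 20% O2, 14022 to 17239 in vehicle at 1% O2 and 13544 to 18961 with 32-134D. The lower sum in hypoxia came from APOB, which encodes the main protein of very low density lipoprotein and averaged 4487, 406 and 3520 CPM in the same order, whereas the mean of ALB was 9284 CPM at 20% O2 and 9536 CPM in vehicle at 1% O2 and the means of TTR, FGB and KRT18 were also higher in the latter. The summed level of 7 markers of immune, endothelial and stromal cells was 28.3 to 32.1 CPM in vehicle at 20% O2. It was 10.7 to 11.7 CPM in vehicle at 1% O2 and 21.8 to 26.5 CPM with 32-134D. PDGFRB, which encodes a stromal growth factor receptor, made up most of that sum. CD3E and VWF were at 0 in every library. The other markers were low but not absent, with counts per library of 2 to 28 for PECAM1, 3 to 26 for CD68, 3 to 56 for COL1A2 and 0 to 3 for PTPRC. The part of these shifts in the results below was not tested. In bulk RNA a higher or lower level can come from more or less RNA per cell or from a change in how many cells carry it, and these cannot be told apart.

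Promoters of 6 of the genes are shown because the genes moved together, apart from ENO3, and because the compound was made against factors with a known core motif. Each line holds the 250 bases before a RefSeq transcription start (GRCh38.p14, 5′ to 3′ on the gene's strand), with every ACGTG or GCGTG on either strand in capitals. CACGTG reads ACGTG on both strands, so that each such site counts as 2 overlapping matches.
ENO2 (chr12:6914330-6914579, plus strand): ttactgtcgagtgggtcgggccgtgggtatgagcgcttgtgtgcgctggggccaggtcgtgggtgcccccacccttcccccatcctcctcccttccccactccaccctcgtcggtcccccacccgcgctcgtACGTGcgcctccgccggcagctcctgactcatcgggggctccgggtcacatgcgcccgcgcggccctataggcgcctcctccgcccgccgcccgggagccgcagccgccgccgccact
PGK1 (chrX:78103998-78104247, plus strand): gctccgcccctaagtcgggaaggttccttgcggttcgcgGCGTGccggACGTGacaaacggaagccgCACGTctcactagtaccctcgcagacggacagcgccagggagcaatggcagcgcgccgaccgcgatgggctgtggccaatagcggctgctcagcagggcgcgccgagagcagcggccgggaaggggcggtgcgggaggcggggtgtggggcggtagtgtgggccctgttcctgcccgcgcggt
ALDOC (chr17:28576896-28577145, minus strand): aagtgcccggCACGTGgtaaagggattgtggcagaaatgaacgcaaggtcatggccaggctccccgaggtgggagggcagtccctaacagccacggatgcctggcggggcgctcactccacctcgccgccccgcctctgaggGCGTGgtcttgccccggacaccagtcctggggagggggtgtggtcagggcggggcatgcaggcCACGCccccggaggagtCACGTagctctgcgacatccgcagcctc
GAPDH (chr12:6535014-6535263, plus strand): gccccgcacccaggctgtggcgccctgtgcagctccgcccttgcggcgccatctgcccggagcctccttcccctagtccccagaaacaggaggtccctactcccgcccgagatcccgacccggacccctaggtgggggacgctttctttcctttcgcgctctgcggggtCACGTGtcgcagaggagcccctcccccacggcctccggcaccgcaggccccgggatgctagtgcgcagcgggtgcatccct
ENO1 (chr1:8878687-8878936, minus strand): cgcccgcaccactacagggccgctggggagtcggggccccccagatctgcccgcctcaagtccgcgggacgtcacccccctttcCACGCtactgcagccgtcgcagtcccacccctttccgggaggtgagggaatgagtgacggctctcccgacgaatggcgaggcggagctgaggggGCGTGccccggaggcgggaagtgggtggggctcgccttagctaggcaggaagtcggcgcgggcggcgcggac
ENO3 (chr17:4950302-4950551, plus strand): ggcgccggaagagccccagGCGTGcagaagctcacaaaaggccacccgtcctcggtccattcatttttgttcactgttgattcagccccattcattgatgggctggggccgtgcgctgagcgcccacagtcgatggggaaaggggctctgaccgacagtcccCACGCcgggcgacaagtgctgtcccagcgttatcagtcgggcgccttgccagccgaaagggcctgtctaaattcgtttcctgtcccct
The single ENO2 match lay 118 bases before the start, and PGK1 held 3, at 211, 202 and 183 bases. ALDOC held 5 matches and GAPDH 2, which overlap in one CACGTG 81 bases before its start. Both ENO1 matches, at 166 and 72 bases, and both ENO3 matches, at 231 and 88 bases, had the GCGTG form. RefSeq gives ALDOA 3 starts and TPI1 and ENO3 another start each, and in all 10 of 13 promoters of the 9 genes held at least 1 match, against 43.2% of the 35116 RefSeq promoters of the same length. At least 2 matches were found in 19.4% of all these promoters, and the ACGTG form in 18.5%. PGAM1, the upstream start of TPI1 and the downstream start of ENO3 held none in this window. The PGAM1 window began at base 97427568, inside a gene that the GENCODE annotation starts at 97426160. The GAPDH window began at 6535014, inside a gene that GENCODE starts at 6533927. For PGAM1 and GAPDH the bases before these GENCODE starts were not searched. Windows of the other genes also lay wholly or partly inside their GENCODE genes. A match is a description of the letters and not evidence of binding, and ENO3, which did not rise, holds as many as ENO1.

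ENO2 rose most in hypoxia, and ALDOA, ALDOC, TPI1, GAPDH, PGK1, PGAM1 and ENO1 rose with it, whereas ENO3 was slightly lower. The comparison of vehicle at 1% O2 with vehicle at 20% O2 addressed how low oxygen changed transcript levels. A gene was called with an FDR below 0.05 (edgeR quasi-likelihood test, adjusted over 22672 genes) and a fold change above 1.5. Of the 9 genes, 8 were called higher and 0 lower, where 19.5% of all genes tested were called higher and 20.3% lower. Their median log2 fold change was 2.07, beside 0.001 over all genes tested. The p-values set each difference against the spread between replicate cultures, estimated from all 3 groups in 1 fit with information shared across genes.

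The aldolases open the stretch. ALDOA (chromosome 16, 30064164 to 30070457, plus strand; all gene positions are GRCh38, GENCODE 29) had 52.3, 57.5 and 51.6 CPM in vehicle at 20% O2, 393, 454 and 461 CPM in vehicle at 1% O2, and 110.1, 109.9 and 86.8 CPM with 32-134D at 1% O2. The 3 groups did not overlap, with the 32-134D libraries between the vehicle groups. ALDOA was 8.15-fold higher in hypoxia (log2 fold change 3.03, SE 0.11, FDR 1.95e-11). Its level is uncertain because 42.3% of its 3916 annotated exon bases are shared on the same strand with AC093512.2, a gene with 8 to 151 counts per library, and how the counter treated reads that fall in both is not given in the sources used here. ALDOC (chromosome 17, 28573115 to 28577264, minus strand) was low at 20% O2, at 6.17, 7.54 and 5.78 CPM, reached 34.6, 45.5 and 46.4 CPM in vehicle at 1% O2, and was 7.77, 6.93 and 5.63 CPM with 32-134D. The hypoxic vehicle libraries stood above all others, and the 32-134D libraries lay within the range of those at 20% O2 or next to it. ALDOC was 6.70-fold higher in hypoxia (log2 2.75, SE 0.16, FDR 2.25e-09).

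**Figure D1:**
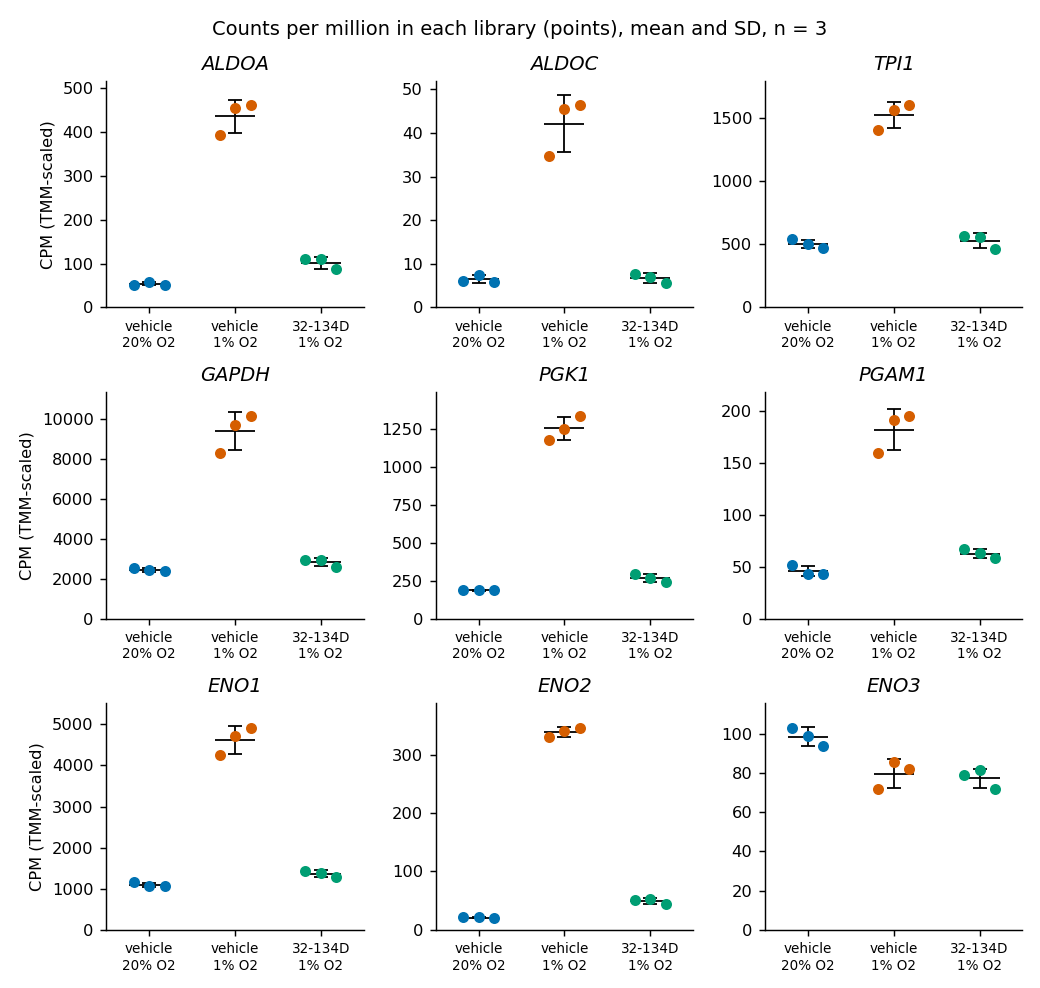
Level of each gene in CPM (vertical axes, each starting at 0) in the 3 libraries of each group (points), with the mean and SD (bars). In 8 panels the vehicle libraries at 1% O2 stand above the 6 others, and in the ENO3 panel they lie below those at 20% O2 and overlap those with 32-134D. The share of all genes tested whose libraries separate in this way is not given here.

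TPI1 and GAPDH handle the triose phosphates. TPI1 (chromosome 12, 6867119 to 6870948, plus strand) had 537, 499.97 and 472 CPM in vehicle at 20% O2, 1402, 1562 and 1597 CPM in vehicle at 1% O2, and 566, 555 and 459 CPM with 32-134D. Only the hypoxic vehicle libraries were high, and the other groups overlapped. TPI1 was 3.02-fold higher in hypoxia (log2 1.60, SE 0.09, FDR 2.24e-09), the least of the 8 genes called. GAPDH (chromosome 12, 6533927 to 6538374, plus strand), often taken as an unchanging reference in expression work, had 2543, 2424 and 2364 CPM in vehicle at 20% O2, 8299.6, 9694 and 10106 CPM in vehicle at 1% O2, and 2943, 2910.3 and 2584 CPM with 32-134D. It was 3.83-fold higher in hypoxia (log2 1.94, SE 0.09, FDR 2.50e-10), with no overlap between any groups. On the opposite strand, 422 bases of the GAPDH exons overlap AC006064.4, and the strand setting of the counting is not given in the sources used here.

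PGK1 and PGAM1 act next. PGK1 (chromosome X, 77910739 to 78129296, plus strand) had the tightest baseline, 191, 186 and 187 CPM in vehicle at 20% O2, against 1180.3, 1255 and 1336 CPM in vehicle at 1% O2 and 295, 269 and 242 CPM with 32-134D. It was 6.68-fold higher in hypoxia (log2 2.74, SE 0.08, FDR 6.14e-12), and the 3 groups did not overlap. PGAM1 (chromosome 10, 97426160 to 97433441, plus strand) had 51.2, 43.2 and 42.8 CPM, then 159, 192 and 195 CPM, and 66.7, 62.8 and 58.0 CPM with 32-134D. It was 3.97-fold higher in hypoxia (log2 1.99, SE 0.10, FDR 7.03e-10), again with 32-134D between the vehicle groups.

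The enolases moved unequally. ENO1 (chromosome 1, 8861000 to 8879250, minus strand) had 1157, 1076 and 1068 CPM in vehicle at 20% O2, 4248, 4708 and 4923 CPM in vehicle at 1% O2, and 1436, 1379 and 1280.1 CPM with 32-134D. ENO2 (chromosome 12, 6913745 to 6923698, plus strand) went from 21.0, 21.2 and 19.9 CPM to 329, 341 and 346 CPM, with 51.1, 53.1 and 43.4 CPM under 32-134D. For both genes the groups did not overlap, and the hypoxic rise was 4.20-fold for ENO1 (log2 2.07, SE 0.08, FDR 4.93e-11) and 16.4-fold for ENO2 (log2 4.04, SE 0.09, FDR 9.55e-13). ENO3 (chromosome 17, 4948092 to 4957131, plus strand) had 103, 98.9 and 93.8 CPM in vehicle at 20% O2, 71.8, 85.8 and 82.0 CPM in vehicle at 1% O2 and 78.9, 81.4 and 71.9 CPM with 32-134D. All hypoxic ENO3 values lay below those at 20% O2, and the log2 difference of -0.31 (SE 0.08, FDR 0.00609) passed the FDR but not the fold change threshold.

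Ordered by log2 fold change in hypoxia, ENO2 stood apart at 4.04 (95% interval 3.84 to 4.23). ALDOA (2.80 to 3.25), ALDOC (2.41 to 3.08) and PGK1 (2.56 to 2.92) followed with overlapping intervals. ENO1 (1.90 to 2.24), PGAM1 (1.77 to 2.20) and GAPDH (1.75 to 2.13) overlapped one another, and TPI1 (1.40 to 1.79) overlapped PGAM1 and GAPDH only. The isozymes that were rare at 20% O2, ENO2 and ALDOC, were thus among the 4 with the largest changes, whereas ENO3, of intermediate level, was the exception in direction.

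With 32-134D at 1% O2, the same 8 genes were lower than with vehicle at 1% O2, by 2.89-fold (TPI1) to 6.87-fold (ENO2), and ENO3 did not differ detectably. This comparison addressed the effect of the compound in hypoxia. In all, 8 of 9 genes were called lower and 0 higher, where 13.7% of all genes tested were called lower and 16.2% higher. The median log2 fold change of the 9 was -1.76, beside -0.01 over all genes tested. Without the third 32-134D library the count was again 8.

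**Figure D2:**
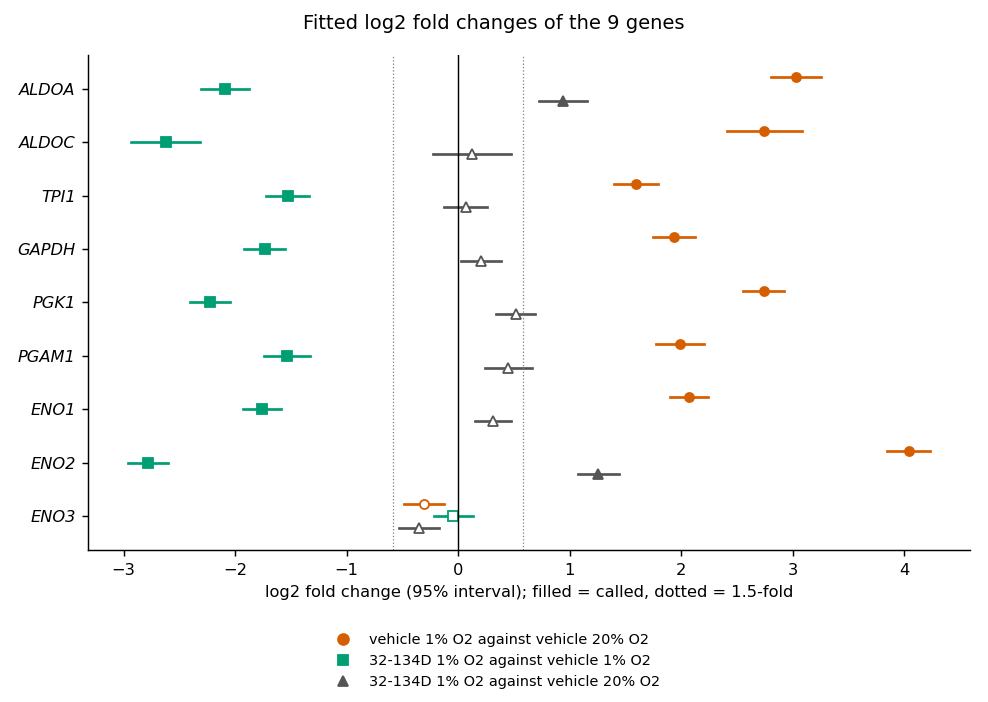
Fitted log2 fold change of each gene (horizontal axis) with its 95% interval in the 3 comparisons; filled symbols passed both thresholds, and dotted lines mark a 1.5-fold change. Hypoxia values run from 1.60 (TPI1) to 4.04 (ENO2) in the 8 called genes, the compound values of the same genes from -2.78 (ENO2) to -1.53 (TPI1), and ENO3 stays between the dotted lines in all 3.

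ENO2 fell by 2.78 on the log2 scale (SE 0.08, FDR 2.98e-11) and ALDOC fell by 2.62 (SE 0.14, FDR 5.51e-09). PGK1 fell by 2.23 (SE 0.08, FDR 2.05e-10) and ALDOA fell by 2.09 (SE 0.10, FDR 1.48e-09). These are also the genes with the largest hypoxic rise, but both comparisons use the same hypoxic vehicle libraries, and the values are given side by side only. The remaining changes were -1.76 for ENO1 (FDR 7.45e-10), -1.74 for GAPDH (FDR 2.38e-09), -1.54 for PGAM1 (FDR 1.69e-08) and -1.53 for TPI1 (FDR 1.01e-08). For ENO3 the log2 difference was -0.04 (95% interval -0.22 to 0.13, FDR 0.705), with the groups overlapping, and its sign changed under other scalings (0.01 with size factors of the relative log expression method, 0.15 with total library size). That interval excludes a 1.5-fold change in either direction.

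Set against vehicle at 20% O2, ENO2 and ALDOA stayed higher with 32-134D at 1% O2, and the fitted changes of the remaining 7 genes were under 1.5-fold. These groups differ in both oxygen and compound, so the comparison gives only the level that remained. The 2 genes called higher, and 0 lower, stand beside 3.0% of all genes tested called higher and 0.516% lower. ENO2 was 2.39-fold higher (log2 1.26, SE 0.09, FDR 4.07e-07) and ALDOA 1.91-fold higher (log2 0.94, SE 0.10, FDR 3.31e-05). Both remained called without the third 32-134D library, at 1.34 and 1.04 on the log2 scale.

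Among the genes not called in this comparison, some passed the FDR and others did not. A failure to pass does not show a return to the 20% O2 level. PGK1 (log2 0.51, 95% interval 0.34 to 0.69, FDR 0.000834), PGAM1 (0.45, interval 0.24 to 0.66, FDR 0.00944) and ENO1 (0.31, interval 0.15 to 0.48, FDR 0.0186) passed the FDR with a fitted fold change under 1.5. Each had no overlap between groups. The intervals of PGK1 and PGAM1 reach past a 1.5-fold change. PGK1 passed the FDR under every alternative run, at most 0.00879. PGAM1 did not pass without the second (FDR 0.0530) or the third (0.0689) vehicle library at 20% O2. ENO1 did not pass without the same libraries (0.0892 and 0.0934), without the first (0.0646) or second (0.0597) 32-134D library, or in the fit of the 2 groups alone (0.0508). GAPDH was 0.20 higher (95% interval 0.02 to 0.38, FDR 0.153) and did not overlap either. Its FDR ran from 0.0169 without the third 32-134D library to 0.355 without the third vehicle library at 20% O2, and was 0.0413 with no filter on low counts. TPI1 (0.07, interval -0.12 to 0.26, FDR 0.714) and ALDOC (0.12, interval -0.23 to 0.47, FDR 0.713) overlapped the 20% O2 vehicle group. The ALDOC interval covers the fitted values of PGAM1 and ENO1, and the TPI1 interval overlaps that of ENO1. The values therefore do not sort these genes into separate groups. ENO3 was lower (log2 difference -0.35, FDR 0.0157), with no overlap, and did not pass without the second vehicle library at 20% O2 (FDR 0.0569). The median of the 9 genes was 0.31, beside -0.003 over all genes tested.

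Within groups the 9 genes shared much of their order from library to library, as did genes outside the 9. The first hypoxic vehicle library was the lowest of its group for all 9 genes and the third 32-134D library was the lowest of its group for all 9, ENO3 included. In vehicle at 20% O2 the third library was lowest for 8. ALB and the glycolysis genes PKM and LDHA were also lowest in the first hypoxic vehicle library and in the third 32-134D library. APOB, by contrast, was highest in the former and SLC16A3 highest in the latter. These orders depend on 1 scaling factor per library, were not set beside the share over all genes and were not tested.

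The balance of isozymes within a step was measured as a ratio of counts inside each library, which no scaling changes. Shares per kilobase use exon lengths merged over all annotated transcripts of a gene, and other lengths would shift them. Per kilobase of exon, ENO2 made up 2.05% ± 0.0799 of the 3 enolases in vehicle at 20% O2, 8.14% ± 0.379 in vehicle at 1% O2 and 3.98% ± 0.238 with 32-134D (SD, n = 3). ENO3 made up 9.73% ± 0.197, 1.91% ± 0.0930 and 6.26% ± 0.207 in the same order. ENO1 held 88.2%, 90.0% and 89.8%, and the brain and muscle isozymes changed places beneath it in hypoxia.

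**Figure D3:**
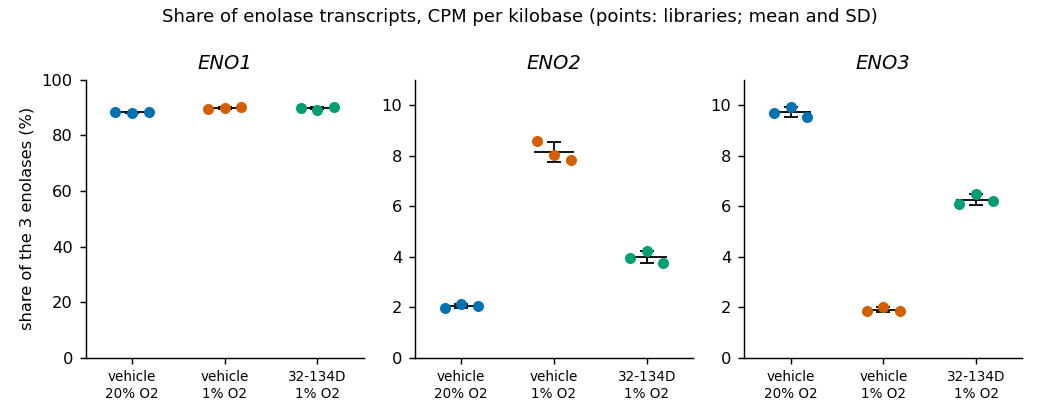
Share of each enolase in the summed CPM per kilobase of the 3 enolases (vertical axes in percent; the ENO1 panel runs to 100 and the others to 11), by library (points) with mean and SD (bars). ENO2 is above ENO3 only in vehicle at 1% O2, at 8.14% against 1.91%.

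Relative to ENO1, the log2 count ratio of ENO2 was 1.96 higher in hypoxia than at 20% O2 and 1.03 lower with 32-134D than with vehicle at 1% O2 (difference -1.03). The ratio of ENO3 to ENO1 fell by 2.38 in hypoxia and was 1.72 higher with 32-134D than without it. Against vehicle at 20% O2, 32-134D left ENO2 higher by 0.93 and ENO3 lower (difference -0.66) relative to ENO1. The log2 ratio of ALDOC to ALDOA differed by -0.32 in hypoxia, by -0.54 between 32-134D and vehicle at 1% O2 and by -0.86 between 32-134D and vehicle at 20% O2. None of these 9 differences had overlapping groups, and each had an exact two-sided permutation p of 0.1 (adjusted over the 9, 0.1), the smallest that 3 against 3 allows, so none could pass 0.05.

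Per kilobase, GAPDH, ENO1, TPI1 and PGK1 were the 4 highest genes of the 9 in that order in every group, at 820, 209, 186 and 34.1 CPM per kilobase in vehicle at 20% O2 and 3142, 877, 563 and 228 in vehicle at 1% O2, with no overlap between neighbours. Below them ENO3 (23.0) came before PGAM1 (17.8), ALDOA (13.7), ENO2 (4.84) and ALDOC (2.22) at 20% O2. In vehicle at 1% O2 the order of these was ALDOA (111), ENO2 (79.1), PGAM1 (70.8), ENO3 (18.6) and ALDOC (14.4), again without overlap of neighbours. With 32-134D it was ALDOA (26.1) and PGAM1 (24.3), which overlapped, then ENO3 (18.03), ENO2 (11.5) and ALDOC (2.31). The ALDOA level carries the limit given for its shared exons. All of these levels depend on the merged exon lengths, and the order under other lengths was not tested.

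Together the 9 genes took 0.472% ± 0.0229 of all counts in vehicle at 20% O2, 1.62% ± 0.114 in vehicle at 1% O2 and 0.547% ± 0.0390 with 32-134D (SD, n = 3). The ranges were 0.451% to 0.496%, 1.50% to 1.72% and 0.502% to 0.573%, so the hypoxic vehicle libraries stood apart from the others. GAPDH alone took 0.258%, 0.853% and 0.292%. Counting error was small beside the spread of cultures: the shallowest library, at 0.467%, had a 95% Wilson interval of 0.462% to 0.473%, which covers counting error only.

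**Figure D4:**
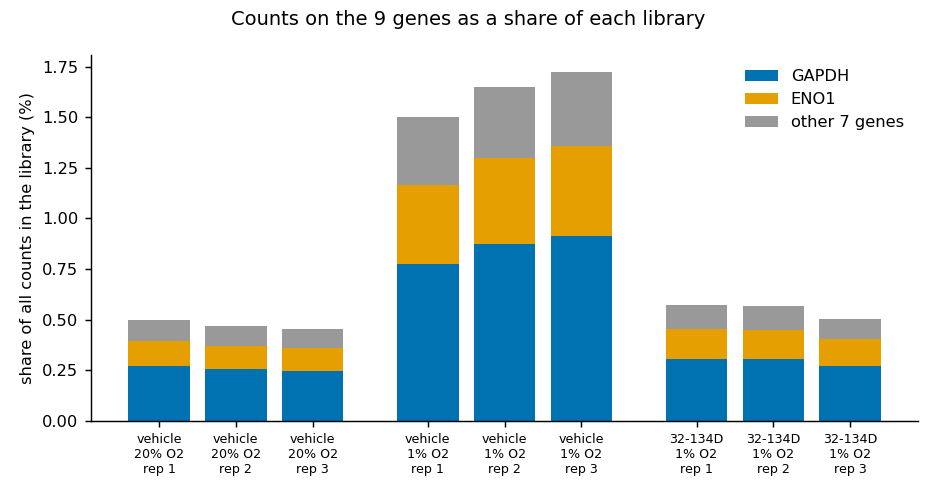
Counts on the 9 genes as a percentage of all counts in each library (stacked bars from 0; GAPDH, ENO1 and the sum of the other 7 genes). The 3 vehicle libraries at 1% O2 reach 1.50% to 1.72%, and the 6 others lie between 0.451% and 0.573%.

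Several of these genes have processed pseudogenes, near copies that can take or lend reads. The table lists 90 of them, and 39 had counts. Pseudogene counts were 0.530% to 0.824% of the summed counts of TPI1 and its copies and 0.124% to 0.159% of those of GAPDH, with TPI1P1 (1099 counts over the 9 libraries), GAPDHP1 (701) and GAPDHP35 (393) at the head. For PGAM1 the share was 1.24% to 3.10% in vehicle at 20% O2, 0.301% to 0.684% in vehicle at 1% O2 and 1.63% to 1.71% with 32-134D. Adding pseudogene counts to each gene changed none of its calls.

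The rest of the pathway was given by 14 other genes, from glucose uptake to lactate export, and 7 isozymes of the same steps. Of these 21, 18 had enough counts to test; LDHB, GAPDHS and PGK2 did not. In hypoxia 13 of the 18 were called higher and 2 lower, where 19.5% of all genes tested were called higher and 20.3% lower. Of the 18, 11 were called lower and 2 higher with 32-134D against vehicle at 1% O2, beside 13.7% and 16.2% of all genes. Against vehicle at 20% O2, 4 were called higher with 32-134D and 1 lower, beside 3.0% and 0.516%. Their median log2 fold changes were 1.86, -1.43 and 0.20, beside 0.001, -0.01 and -0.003 over all genes tested. HK1 (65 counts in all) and PGAM4 (53) were among those called higher in hypoxia. With 10 counts needed in every library, 9 were called higher in hypoxia and 8 lower with 32-134D. Without the third 32-134D library, 13 were called lower. The lists were chosen with earlier results known, and their counts are a description.

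Upstream of aldolase, the glucose transporter SLC2A1 had 17.2, 25.9 and 23.4 CPM in vehicle at 20% O2, 365, 429 and 440.2 CPM in vehicle at 1% O2 and 83.3, 80.6 and 80.9 CPM with 32-134D. It was 4.23 higher in hypoxia, fell by 2.33 with 32-134D and remained 1.89 above the 20% O2 vehicle group on the log2 scale. PFKFB4, which makes the activator of phosphofructokinase, had the largest hypoxic change of the 18, 5.14, and also remained higher with 32-134D, by 2.04. Hexokinase HK2 (2.55 in hypoxia, -1.80 with 32-134D) and glucose-6-phosphate isomerase GPI (1.70 and -1.68) were called in both. The phosphofructokinase subunits did not move alike: PFKM was lower in hypoxia (log2 fold change -0.65) and 0.62 higher with 32-134D, PFKL changed by 0.48 and -0.55 and was not called, and PFKP, at 6 to 142 counts per library, was called higher in hypoxia (1.81) but not lower with 32-134D (-0.71). Without the third 32-134D library the compound value of PFKM was 0.57, under the fold change threshold, and that of PFKP was -1.22 and was called.

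Downstream of enolase, pyruvate kinase PKM changed by 1.44 in hypoxia and by -1.35 with 32-134D, and was 0.09 from the 20% O2 vehicle group. Lactate dehydrogenase LDHA changed by 3.46 and -2.38 and remained 1.08 higher, a called difference, and LDHB had 4 counts in all. The lactate exporter SLC16A3 changed by 1.92 and -1.51. ENO2, ALDOA, SLC2A1, HK2, PFKFB4 and LDHA were thus the genes of the pathway called higher with 32-134D at 1% O2 than with vehicle at 20% O2.

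**Figure D5:**
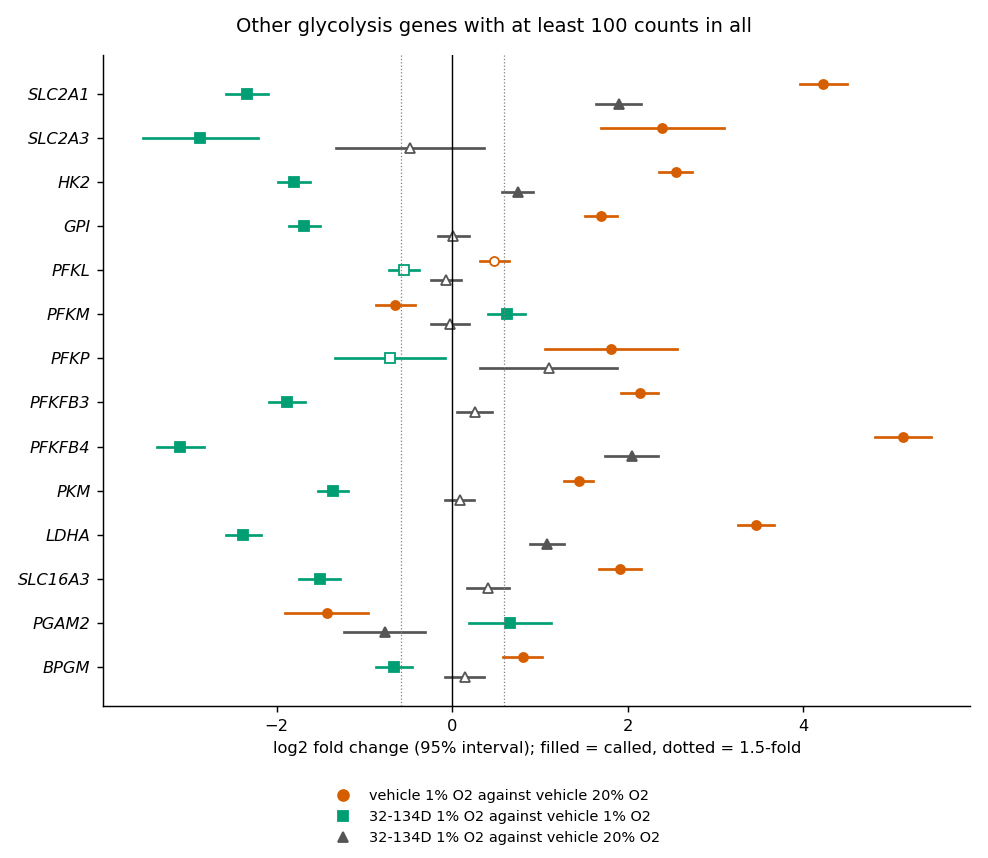
Fitted log2 fold change (horizontal axis) with 95% interval in the 3 comparisons for the 14 other glycolysis genes and isozymes with at least 100 counts over all libraries; filled symbols passed both thresholds. PFKM and PGAM2 lie on the opposite side of 0 from most others in hypoxia, at -0.65 and -1.43.

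Among isozymes of the same steps, PGAM2, the muscle phosphoglycerate mutase, went the way opposite to PGAM1. It had 30.8, 26.9 and 24.2 CPM in vehicle at 20% O2, 8.67, 11.2 and 10.6 CPM in vehicle at 1% O2 and 20.1, 18.2 and 9.10 CPM with 32-134D, where the third library lay within the hypoxic vehicle range and apart from the other two. PGAM2 was called lower in hypoxia (log2 fold change -1.43), higher with 32-134D than with vehicle at 1% O2 (0.66) and lower than in vehicle at 20% O2 (-0.77). The last 2 calls rested on single libraries: the difference from vehicle at 1% O2 was 0.55, 0.51 and 0.55 and not called without the first vehicle library at 1% O2 or the first or second 32-134D library, and the difference from vehicle at 20% O2 was not called without any given 20% O2 library (-0.87 to -0.66) or without the third 32-134D library (-0.50). BPGM, which encodes bisphosphoglycerate mutase, changed by 0.80 in hypoxia and -0.66 with 32-134D. Both were called, the latter not without the third vehicle library at 1% O2 (-0.58). PGAM2 and ENO3 were both lower in hypoxia, PGAM2 by a called amount and ENO3 not.

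Over the 9 libraries, the log2 CPM of the 8 genes other than ENO3 followed the mean profile of the 9 with Pearson's r from 0.964 (ENO2) to 0.998 (TPI1), and ENO3 had r = -0.327. Among 9857 other genes with a mean of at least 10 CPM, those most like this profile were FUNDC2 (r = 0.999), PPM1G, IGSF8, CLK2 and FLOT1 (each r = 0.998). FUNDC2, which encodes a mitochondrial outer membrane protein, averaged 47.6 CPM in vehicle at 20% O2, 191 in vehicle at 1% O2 and 52.6 with 32-134D. All these points share libraries that fall into 3 groups, so the r values mostly restate the group means and are given as a description. Each of the 9 genes is also part of the profile it was set against.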

How the data were processed

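Total RNA of 9 Hep3B cultures was sequenced on an Illumina NovaSeq platform. The authors deposited raw counts per Ensembl gene, made with STAR and featureCounts on GRCh38; tool versions and the strand setting are not given in the sources used here. Columns were matched to samples by the names in the labels. The quasi-likelihood test of edgeR 4.0.16 (R 4.3.3, TMM scaling) gave log2 fold changes from 1 fit of all 9 libraries for the 22672 genes whose summed count reached 10, and p-values were adjusted over these by the Benjamini-Hochberg method. Calls needed an FDR below 0.05 and a fold change above 1.5. Script steps were tested on simulated data. Isozyme ratios were compared by exact permutation (scipy 1.17.1). Exon lengths and positions came from GENCODE 29, an earlier release than the one counted, and all 9 genes matched; promoters came from RefSeq (GRCh38.p14).

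The 9 genes and the lists were chosen with earlier results of these data known. Genes named besides the 9 are the listed pathway genes, the pseudogenes with the most reads, and the 5 genes most correlated with the mean profile (1 listed gene is not reported here); AC093512.2, AC006064.4, ALB, APOB, TTR, FGB, KRT18, PDGFRB, CD3E and VWF are named as overlap partners or cell markers. Alternatives were other scalings, filters and thresholds, DESeq2 1.42.0, fits of 2 groups, a replicate block, added pseudogene counts, thinning to the smallest library and leaving out each library. No library duplicated another of its group (chi-square per degree of freedom between replicates, 1.64 to 40.5).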

Additional observations from a re-analysis of the deposited data

How the results depend on the processing

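The counts of 8 genes higher in hypoxia and 8 lower with 32-134D were the same under every alternative run, leaving out each library included (8 to 8 in both). For 32-134D at 1% O2 against vehicle at 20% O2, 2 genes were called (2 to 2 when a library was left out), 5 with no fold change threshold and 1, ENO2, with a fold change above 2. The replicate block gave 8, 8 and 2, and 12 other glycolysis genes lower with 32-134D in place of 11; deviations of same-numbered samples had correlations from -0.03 to 0.01, so the numbers were not taken to pair the cultures. The ENO3 difference between 32-134D and vehicle at 1% O2, -0.04, turned to 0.0145 with relative log expression factors, 0.0150 with DESeq2, 0.145 with unscaled library totals, 0.0514 when each library needed 10 counts, 0.0214 in the fit of 2 groups and 0.0743 after thinning, and ranged from -0.12 to 0.04 when a library was left out (0.0126 without the second and 0.0429 without the third vehicle library at 1% O2, 0.0052 without the first and 0.0085 without the third 32-134D library); none of these was called. Total library size in place of TMM moved the median of all genes by -0.21 in hypoxia and 0.17 with 32-134D, and the share of calls that were higher from 49.0% to 34.5% and from 54.2% to 72.02%; under it the hypoxic changes of the 8 called genes still ran from 1.38 (TPI1) to 3.82 (ENO2), and ENO3 was -0.52 and was not called. Depth limits HK1 and the isozymes PGAM4 and ENO4, which had few counts, and not the 9 genes, which had at least 48 counts in every library.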
